A study of Rattus norvegicus with 16 samples.

Results

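Toll-like receptors are sensors of microbial products and of molecules released by damaged cells, and the inflammasome is a protein complex that turns such signals into active caspase-1. The 10 genes described here were 6 receptors (Tlr2, Tlr3, Tlr4, Tlr7, Tlr8 and Tlr9), the adaptor Myd88, and 3 inflammasome components (Nlrp3, Pycard and Casp1). They were taken by symbol from the 21021 genes listed for every sample, and all 10 were listed. The set was drawn up with earlier results of these data known. RNA was sequenced from dorsal root ganglia (DRG), the clusters of sensory nerve cell bodies beside the spinal cord, of adult female Sprague-Dawley rats. In the tumor cell implantation (TCI) groups, rat mammary gland carcinoma cells were injected into the left tibia and the L3 to L5 ganglia of the same side were taken on day 1, 7 or 14, and sham samples are labelled day 14. Sham rats received PBS per the labels and boiled tumor cells per the study's methods. Each of the 4 groups held 4 samples, each being the pooled ganglia of 1 animal, and no sham samples from day 1 or day 7 were analysed here. The study asked how the ganglion transcriptome changes as bone cancer pain develops.

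Tlr2 and Tlr4 sit in the outer membrane and bind bacterial lipoproteins and lipopolysaccharide, and Tlr4 also responds to molecules from injured tissue. Tlr3, Tlr7, Tlr8 and Tlr9 sit in endosomes and bind nucleic acids. All of them except Tlr3 signal through Myd88 to NF-kB and interferon regulatory factors, and one target of that signal is Nlrp3. The sensor Nlrp3 then assembles with the adaptor encoded by Pycard (ASC) to activate caspase-1, which matures interleukin-1 beta and interleukin-18. Macrophages carry most of these genes at high level, and sensory neurons and glia have been described to carry some of them.

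Levels are given in FPKM, fragments scaled by transcript length and by all mapped fragments, which allows genes to be compared with each other. Sample 2 of day 1 and sample 3 of day 7 were left out of the main comparisons, so day 1 and day 7 hold 3 samples each. The study excluded the same samples. Left-out sample 3 of day 7 had a summed level of sensory neuron markers of 8943 FPKM and of skeletal muscle markers of 21906 FPKM, so values that include it rest on a sample with abundant muscle RNA. One sham sample, number 4, reached a summed skeletal muscle marker level of 536.9 FPKM, against 9.03 to 21.05 FPKM in the others of the 14 samples used. Sample 2 of day 14 was the highest of its group for 10 of 10 members and sample 3 of that day the lowest for 10 of 10, and sample 2 of day 7 was the highest of the 3 used on that day for 9 of 10. The DRG identity of the tissue was checked on 12 sensory neuron markers, whose summed level was 12281 to 15949 FPKM in the 14 samples. A whole ganglion mixes neurons, glia, vessels and immune cells, and in such bulk tissue a change in the number of cells of a type and a change in RNA per cell cannot be told apart.

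In sham ganglia the members were expressed at low level. Myd88 was the highest at 3.90 ± 0.354 FPKM (SD, n = 4), followed by Pycard at 1.68 ± 0.400 FPKM (SD, n = 4), and neither overlapped with the next lower gene in this order. Tlr4 (1.07 ± 0.165 FPKM, n = 4), Casp1 (0.793 ± 0.265 FPKM), Tlr3 (0.705 ± 0.141 FPKM), Tlr2 (0.603 ± 0.0619 FPKM), Tlr7 (0.425 ± 0.187 FPKM) and Nlrp3 (0.413 ± 0.0695 FPKM) formed a series in which each gene overlapped with its neighbor. Tlr8 (0.203 ± 0.0789 FPKM) and Tlr9 (0.10 ± 0.0560 FPKM) came last. On day 7 the order had changed. Pycard, at 9.62 ± 3.0 FPKM (SD, n = 3), overlapped with Myd88 at 7.64 ± 0.809 FPKM at the top, and Casp1 stood in the next place at 5.72 ± 0.789 FPKM, separate from the genes on either side. Tlr9 remained the lowest at 0.520 ± 0.197 FPKM.

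On day 7 every one of the 10 members was higher in each of the 3 TCI samples than in each of the 4 sham samples, where 23.8% of the 14023 genes tested showed the same separation. Left-out sample 3 of day 7, the one with the skeletal muscle marker sum of 21906 FPKM, was also above every sham sample for 10 of 10 members. On day 14 this held for 9 of 10 members, all but Tlr4, against 13.8% of genes. The ratio of the mean level to sham had a median of 4.96 over the 10 members on day 7 and ranged from 1.83 for Tlr4 to 9.28 for Tlr8. On day 14 the median ratio was 4.15, with Tlr4 at 1.41 and Tlr8 at 6.49 at the ends.

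**Figure D1:**
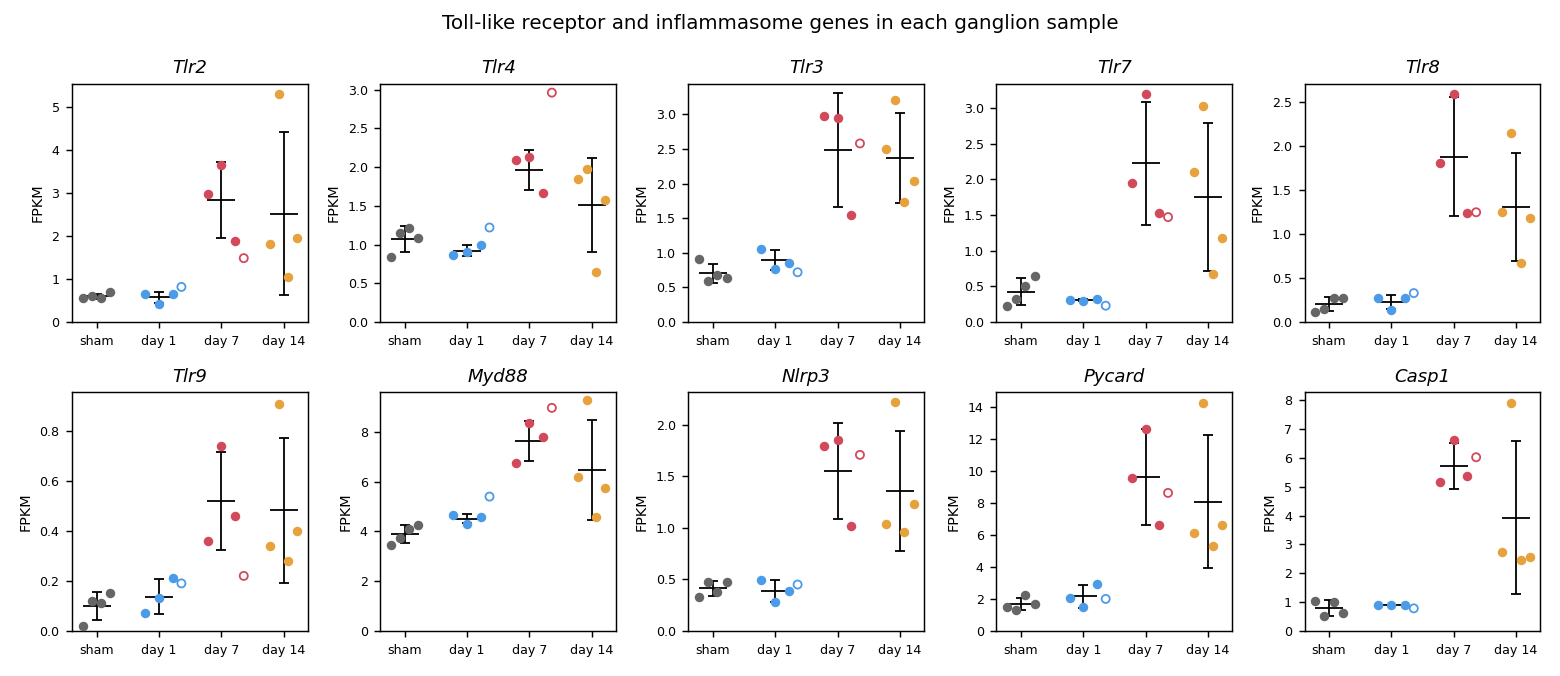
Level of each of the 10 members in FPKM (y axis, from 0) in sham ganglia and on days 1, 7 and 14 after TCI (x axis). Filled points are samples, open points the 2 samples left out of the main comparisons, and bars the mean and SD of the filled points. Day 7 samples lie above all sham samples in every panel, and sample 2 of day 14 is the highest of its group in every panel.

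Among the receptors of the cell surface, Tlr2 was measured at 0.57, 0.60, 0.55 and 0.69 FPKM in the sham samples and at 0.65, 0.42 and 0.66 FPKM on day 1. It reached 2.98, 3.65 and 1.90 FPKM on day 7 and 1.81, 5.31, 1.04 and 1.95 FPKM on day 14. Sample 2 of day 14 was far above the others of its group, and both late groups were clear of sham. The increase was 1.24 ± 0.284 (log2 fold change of FPKM + 1 with its SE, limma adjusted p = 0.008966) on day 7 and 1.00 ± 0.263 (adjusted p = 0.02226) on day 14.

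Tlr4 moved least. Its levels were 0.84, 1.15, 1.22 and 1.08 FPKM in sham ganglia, 0.86, 0.91 and 1.00 FPKM on day 1, 2.09, 2.13 and 1.67 FPKM on day 7, and 1.85, 1.98, 0.64 and 1.57 FPKM on day 14. The day 7 samples lay above all sham samples, whereas sample 3 of day 14 lay below all of them. The log2 difference from sham was 0.52 ± 0.169 on day 7 with an adjusted p of 0.05067, just above 0.05, and 0.24 ± 0.156 on day 14 (limma adjusted p = 0.3249). With left-out sample 3 of day 7, where Tlr4 was at 2.96 FPKM, the day 7 difference was 0.62 and the adjusted p 0.01625. That sample had a skeletal muscle marker sum of 21906 FPKM, against 10.88 to 16.41 FPKM in the other 3 of day 7, and the part of muscle in this value was not tested.

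The endosomal receptor Tlr3, which binds double-stranded RNA, was at 0.91, 0.60, 0.68 and 0.63 FPKM in sham ganglia and at 1.06, 0.77 and 0.86 FPKM on day 1. On day 7 it was at 2.97, 2.95 and 1.54 FPKM, and on day 14 at 2.50, 3.21, 1.73 and 2.04 FPKM. Both late groups were clear of the sham group, and the mean level on day 14 was 0.953 times that on day 7. It rose by 1.01 ± 0.169 on day 7 (limma adjusted p = 0.001402) and by 0.97 ± 0.157 on day 14 (adjusted p = 0.001982).

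Tlr7 and Tlr8, which bind single-stranded RNA and lie side by side on chromosome X, started lower. Tlr7 was at 0.22, 0.33, 0.51 and 0.64 FPKM in sham ganglia, 0.31, 0.30 and 0.33 FPKM on day 1, 1.95, 3.19 and 1.53 FPKM on day 7, and 2.10, 3.03, 0.68 and 1.18 FPKM on day 14. Tlr8 was at 0.12, 0.15, 0.27 and 0.27 FPKM in sham ganglia, 0.28, 0.14 and 0.27 FPKM on day 1, 1.81, 2.59 and 1.24 FPKM on day 7, and 1.25, 2.15, 0.67 and 1.19 FPKM on day 14. In both genes the late samples were above every sham sample, although sample 3 of day 14 exceeded the highest sham value of Tlr7 only narrowly. On day 7 Tlr7 rose by 1.15 ± 0.252 (limma adjusted p = 0.006811) and Tlr8 by 1.24 ± 0.190 (adjusted p = 0.0008252), and on day 14 by 0.88 ± 0.233 (adjusted p = 0.02367) and 0.91 ± 0.176 (adjusted p = 0.005002).

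Tlr9, a sensor of unmethylated DNA, never reached 1 FPKM and so was not part of the test across genes. Its levels were 0.02, 0.12, 0.11 and 0.15 FPKM in sham ganglia, 0.07, 0.13 and 0.21 FPKM on day 1, 0.36, 0.74 and 0.46 FPKM on day 7, and 0.34, 0.91, 0.28 and 0.40 FPKM on day 14. All late samples were above all sham samples. The difference in mean log2(FPKM + 1) from sham was 0.46 on day 7 and 0.41 on day 14, each with p = 0.0286 in a two-sided exact permutation test, which is the smallest p these sample numbers allow.

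Myd88 was the most abundant member in sham ganglia. It was at 3.47, 3.75, 4.10 and 4.26 FPKM in sham ganglia, 4.64, 4.31 and 4.58 FPKM on day 1, 6.77, 8.37 and 7.78 FPKM on day 7, and 6.20, 9.30, 4.59 and 5.74 FPKM on day 14. It was the one member whose day 1 samples all lay above the sham samples, by a small margin. That day 1 difference, 0.17 ± 0.154, did not pass the test (limma adjusted p = 0.9763). The share of all genes separated in this way on day 1 was not computed. Myd88 rose by 0.82 ± 0.154 on day 7 (adjusted p = 0.002845) and by 0.57 ± 0.142 on day 14 (adjusted p = 0.01696).

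Of the inflammasome genes, the sensor Nlrp3 was at 0.33, 0.47, 0.38 and 0.47 FPKM in sham ganglia, 0.49, 0.28 and 0.39 FPKM on day 1, 1.80, 1.85 and 1.02 FPKM on day 7, and 1.04, 2.22, 0.96 and 1.23 FPKM on day 14. It rose by 0.84 ± 0.167 on day 7 (limma adjusted p = 0.003975) and by 0.71 ± 0.154 on day 14 (adjusted p = 0.008553).

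Pycard and Casp1 showed the largest differences among the members on this scale. Pycard was at 1.5, 1.30, 2.23 and 1.67 FPKM in sham ganglia, 2.03, 1.47 and 2.95 FPKM on day 1, 9.56, 12.65 and 6.65 FPKM on day 7, and 6.13, 14.27, 5.31 and 6.64 FPKM on day 14. Casp1 was at 1.03, 0.52, 1.01 and 0.61 FPKM in sham ganglia, 0.89, 0.89 and 0.88 FPKM on day 1, 5.16, 6.62 and 5.37 FPKM on day 7, and 2.75, 7.90, 2.47 and 2.57 FPKM on day 14. In both genes the lowest late sample was more than 2-fold above the highest sham sample. On day 7 Pycard rose by 1.96 ± 0.280 (limma adjusted p = 0.0005147) and Casp1 by 1.91 ± 0.264 (adjusted p = 0.0004054). On day 14 the changes were 1.68 ± 0.260 (adjusted p = 0.001489) and 1.34 ± 0.245 (adjusted p = 0.003525). Without sample 2 of day 14, the Casp1 change on day 14 was 1.02 and that of Pycard 1.4.

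**Figure D2:**
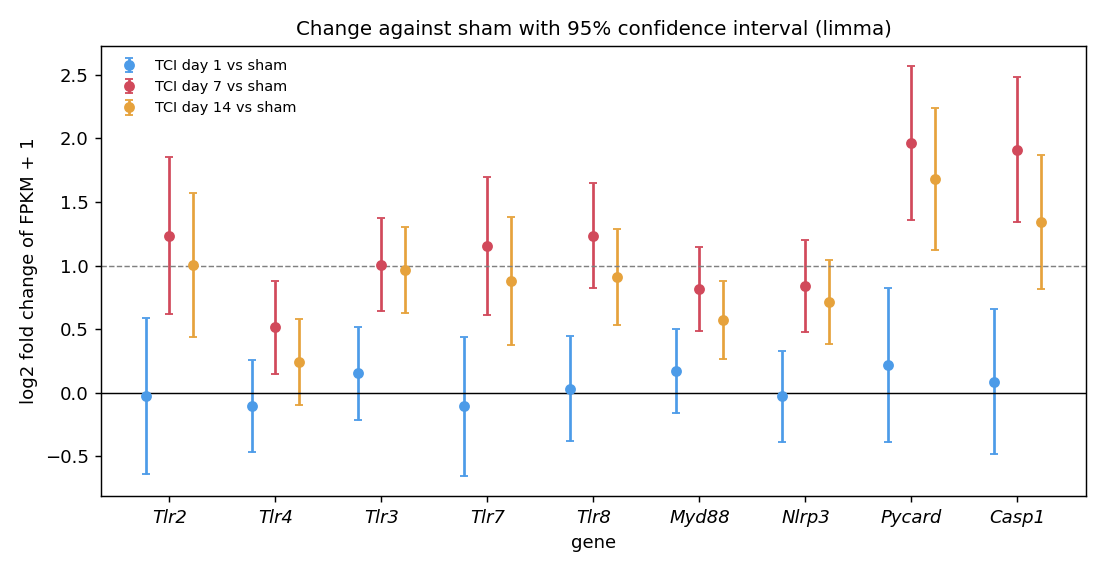
Difference from sham in log2(FPKM + 1) (y axis) of the 9 members tested (x axis) on days 1, 7 and 14, as limma estimates with 95% confidence intervals. The solid line marks no change and the dashed line a log2 fold change of 1. Day 1 intervals all include 0, and the day 14 interval of Tlr4 does as well.

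The cut-offs of the strict rule are those of the study, which applied them with DEGseq2 and not with limma on log2(FPKM + 1). Counts here need not match those of the study. The strict rule asks for both an adjusted p of 0.001 or less and an absolute log2 fold change of 1 or more. By it, 3 of 9 tested members (Tlr8, Pycard and Casp1) were up-regulated on day 7, beside 1.83% of all 14023 genes. By a looser rule, an adjusted p of 0.05 or less with any fold change, 8 of 9 were up-regulated on day 7, all but Tlr4, where 14.5% of all genes were. Of the 9 members tested, 4 (Tlr2, Tlr7, Tlr8 and Nlrp3) passed the filter of 1 FPKM in 3 samples only through days 7 and 14. Tlr3, with 1 sample at that level on day 1, and Casp1, with 2 in sham, also needed the late days to pass. These counts are thus no support for a common direction. The strict count rested on single samples. It fell to 0 without any 1 of the 4 sham samples or without sample 1 or 2 of day 7. It fell to 1 without sample 1 of day 1, and rose to 5 without sample 2 of day 14. With 1 of the 14 samples left out in turn, Tlr8 lost its strict call in 11 fits, and Pycard and Casp1 in 7 each. The looser count stayed at 8 or 9 whichever sample was left out, and all 16 samples, with the muscle-rich sample 3 of day 7 included, gave 9.

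Day 14 had 0 of 9 members at the strict cut-offs, where 0.642% of all genes were up-regulated, and 8 of 9 at the looser rule, where 11.9% were. At an unadjusted p below 0.05 there were 8 on that day, beside 4198 of all 14023 genes in either direction. Without the intensity trend limma also called 0 members at the strict cut-offs. Without sample 2 of day 14 the strict count was 2, and without sample 1 of the sham group the looser count was 5. Day 1 had 0 of 9 members at either rule (0.0% of all genes), and limma without the intensity trend gave 0 as well. At an unadjusted p below 0.05 it had 0 members, beside 734 of all 14023 genes in either direction. The 95% confidence intervals on day 1 lay between -0.65 for the lowest bound (Tlr7) and 0.83 for the highest (Pycard), so a change of the size seen on day 7 in Pycard and Casp1 lay outside their day 1 intervals.

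The late days were also compared directly. From day 7 to day 14, 0 of 9 members were lower at the strict cut-offs, where 0.0143% of all genes were, and 0 at the looser rule, where 0.0927% were. At an unadjusted p below 0.05 there were 0, beside 1396 of all 14023 genes in either direction, and limma without the intensity trend called 0 members. Casp1 came nearest, at -0.57 ± 0.264, with a 95% confidence interval from -1.14 to 0.003 (adjusted p = 0.5037), and its 3 day 14 samples other than sample 2 were all below the day 7 samples. Without sample 2 of day 14 the Casp1 difference was -0.895. The lowest limma adjusted p of Casp1 with 1 sample left out was 0.004045, which passes the looser rule, so its place here rested on single samples. With all 14 samples, estimates were negative for all 9 members, from -0.04 for Tlr3 to -0.57 for Casp1, although the small Tlr3 value turned positive under several other settings. From day 1 to day 7, 9 of 9 members rose at the looser rule, where 9.02% of all genes did, and 0 at the strict cut-offs, where 0.884% did. At an unadjusted p below 0.05 there were 9, beside 3312 of all 14023 genes in either direction. Without the intensity trend limma called 0 members at the strict cut-offs, and without sample 2 of day 14 the strict count was 4. The median change of the 9 tested members was 1.15 on day 7 and 0.91 on day 14, where that of all tested genes was 0.04 and 0.03. With no filter on level the median over all 10 members was 1.08 on day 7.

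The promoters of Tlr8, Pycard and Casp1, the members past the strict cut-offs on day 7, are shown because each holds the same short motif, together with that of Tlr4, which moved least and holds it too. Each is the 250 bases before the RefSeq start of the gene in the GRCr8 assembly, on the gene's strand. They lie at chrX:30708476-30708725 (plus strand, Tlr8), chr1:192033420-192033669 (minus strand, Pycard), chr8:10872580-10872829 (plus strand, Casp1) and chr5:85160997-85161246 (plus strand, Tlr4). Capitals mark the ETS motif AGGAAGT and the interferon response motif GAAANNGAA on either strand, where N is any base.
Tlr8: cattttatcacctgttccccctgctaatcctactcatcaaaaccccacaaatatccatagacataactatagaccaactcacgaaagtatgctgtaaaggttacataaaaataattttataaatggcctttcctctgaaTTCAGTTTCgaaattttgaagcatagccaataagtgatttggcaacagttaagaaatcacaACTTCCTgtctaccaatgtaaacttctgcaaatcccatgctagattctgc
Pycard: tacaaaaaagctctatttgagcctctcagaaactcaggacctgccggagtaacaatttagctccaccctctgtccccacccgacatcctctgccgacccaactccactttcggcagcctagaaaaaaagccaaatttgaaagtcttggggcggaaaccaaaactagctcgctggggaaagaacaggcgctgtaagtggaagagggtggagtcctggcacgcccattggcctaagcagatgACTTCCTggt
Casp1: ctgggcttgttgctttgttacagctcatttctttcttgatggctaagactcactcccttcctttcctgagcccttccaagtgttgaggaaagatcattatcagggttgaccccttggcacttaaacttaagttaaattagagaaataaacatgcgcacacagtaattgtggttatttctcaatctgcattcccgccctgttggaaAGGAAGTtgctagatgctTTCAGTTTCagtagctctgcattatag
Tlr4: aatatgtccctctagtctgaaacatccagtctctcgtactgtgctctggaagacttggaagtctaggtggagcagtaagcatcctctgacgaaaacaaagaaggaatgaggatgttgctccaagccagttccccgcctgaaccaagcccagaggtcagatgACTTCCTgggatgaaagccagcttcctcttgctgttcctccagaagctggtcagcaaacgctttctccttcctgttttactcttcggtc
The ETS motif, of the kind bound by the myeloid factor PU.1, was found in 4 of the 10 member promoters and in 7.08% of 33469 rat promoters of this length. It began 50 bases before the start in Tlr8, 10 in Pycard, 45 in Casp1 and 89 in Tlr4. Motifs were chosen after the sequences were seen. The interferon response motif was found in 3 members (Tlr8, Myd88 and Casp1) and 8.12% of all promoters, and an NF-kB motif, GGGNNTTCC, in Tlr2 and Tlr7 and 5.09% of all promoters. A match gives the presence of these letters and not that a factor is bound.

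Among 73 other genes of the same pathways, 59 passed the filter. Of these, 10 did so only through days 7 and 14 (Tlr1, Tlr13, Lbp, Cd180, Rel, Nlrp1a, Mefv, Il1b, Il18 and Il1rn), so they had been admitted by being high on the days tested, and the counts by list below are descriptions beside the 14.5% of all genes up-regulated on day 7 and 11.9% on day 14 at the looser rule. At the strict cut-offs 4 were up-regulated on day 7 and 0 on day 14, and at the looser rule 33 were up-regulated and 1 down-regulated on day 7 and 25 up-regulated on day 14. At an unadjusted p below 0.05 there were 35 on day 14, beside 4198 of all 14023 genes in either direction. Without the intensity trend limma called 0 of the pathway genes there at the strict cut-offs. Without sample 2 of day 14 the strict counts were 11 and 4. The strict count on day 7 fell to 1 or 2 when any 1 sham sample, sample 1 of day 1 or sample 1 or 2 of day 7 was left out. The median change of the 59 genes was 0.40 on day 7 and 0.34 on day 14.

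The 4 pathway genes past the strict cut-offs on day 7 were all partners of the receptors. Cd14, which hands lipopolysaccharide to Tlr4, had a level of 0.928 ± 0.163 FPKM (SD, n = 4) in sham ganglia and rose to 7.40 ± 1.60 FPKM (n = 3), a log2 fold change of 2.11 ± 0.256 (limma adjusted p = 0.0002041). Lbp, the secreted protein that carries lipopolysaccharide to Cd14, rose from 0.618 ± 0.197 to 5.64 ± 2.33 FPKM, by 1.99 ± 0.188 (adjusted p = 6.091e-05). Ly86, the partner of the receptor homolog Cd180, rose by 1.94 ± 0.272 (adjusted p = 0.0004649), and Unc93b1, which escorts the endosomal receptors out of the endoplasmic reticulum, by 1.49 ± 0.215 (adjusted p = 0.0005554). Thus of 9 partner genes, 7 were up-regulated on day 7 at the looser rule. Among them was Ly96, the co-receptor of Tlr4, given outside the rule for named genes (0.82 ± 0.165, limma adjusted p = 0.004205). Tlr4 itself had an adjusted p of 0.05067. Lbp was the one pathway gene lower on day 14 than on day 7 at the looser rule, at 1.10 ± 0.292 FPKM (n = 4) on day 14, a log2 difference of -1.61 ± 0.188 (limma adjusted p = 0.003865).

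Of the 7 other Toll-like receptors, 3 were tested, and Tlr1 and Tlr13 among them had passed the filter only through the late days. With no filter, 2 of 7 were up-regulated on day 7 at the looser rule, Tlr6 being lost at an adjusted p of 0.05463. Tlr1, the partner of Tlr2 for lipoproteins, went from 0.180 ± 0.0829 to 2.14 ± 0.582 FPKM (log2 fold change 1.4 ± 0.333, limma adjusted p = 0.0107). Tlr13, a sensor of bacterial ribosomal RNA, rose by 0.90 ± 0.168 (adjusted p = 0.002792), and Tlr6, the other partner of Tlr2, by 0.40 ± 0.121 (adjusted p = 0.03503). Of the adaptors and kinases, 2 of 15 were up-regulated on day 7, near the share of all genes (14.5%). They were Ikbke (0.94 ± 0.138, adjusted p = 0.0006119) and Irak2 (0.33 ± 0.104, adjusted p = 0.0444), and the ubiquitin ligase Traf3 was down-regulated by -0.34 ± 0.070 (adjusted p = 0.004937). Irak1, the kinase next to Myd88, was at 22.2 ± 0.470 FPKM in sham and 23.8 ± 0.574 FPKM on day 7 (log2 difference 0.10 ± 0.041, adjusted p = 0.1273).

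Transcription factors at the end of the pathway passed the looser rule in 5 of 8 cases on day 7 and 4 of 8 on day 14. Irf7, which drives type I interferon genes, rose from 4.38 ± 0.794 FPKM in sham to 31.1 ± 4.27 FPKM on day 7 (log2 fold change 2.58 ± 0.564, limma adjusted p = 0.006877). It was at 48.0 ± 59.6 FPKM on day 14, from 12.97 to 137.08 FPKM among the 4 samples, the highest being sample 2. Irf5, which acts directly below Tlr7 and Myd88, rose by 1.27 ± 0.252 (adjusted p = 0.003955) and the NF-kB subunit gene Nfkb2 by 0.68 ± 0.186 (adjusted p = 0.02377), while Relb had a difference of 0.58 ± 0.198 (adjusted p = 0.06185). Of 7 brakes on the pathway, 3 rose on day 7: Nfkbia, the inhibitor of NF-kB (0.96 ± 0.209, adjusted p = 0.006569), Sigirr (0.52 ± 0.160, adjusted p = 0.04005) and Irak3 (0.39 ± 0.087, adjusted p = 0.008112).

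On the inflammasome side, only 3 of 11 other sensors passed the filter. Of them 1, Nlrp1a, which passed only through the late days, rose on day 7 (0.53 ± 0.134, limma adjusted p = 0.01526). With no filter 3 of 11 rose at the looser rule, Nlrp1a, Aim2 (adjusted p = 0.01569) and Nlrc4 (adjusted p = 0.0309), while Nlrp6 fell (adjusted p = 0.04267). Aim2, Nlrc4 and Nlrp6 had mean levels below 1 FPKM in both groups. Of 5 triggers and regulators 3 rose on day 7, namely Pstpip1, the pyrin-binding adaptor (1.60 ± 0.344, adjusted p = 0.006433), Txnip, the thioredoxin inhibitor that binds Nlrp3 (0.76 ± 0.147, adjusted p = 0.003286), and the channel gene Panx1 (0.24 ± 0.075, adjusted p = 0.0441). Of 10 effectors, 9 were tested, among them Il1b, Il18 and Il1rn, which passed the filter only through the late days. At the looser rule 9 of 9 rose on day 7, where 14.5% of all genes did, and 6 of 9 on day 14. With no filter it was 8 of 10 and 6 of 10. The caspase-1 substrate Il18 went from 0.540 ± 0.227 FPKM in sham to 4.03 ± 0.669 FPKM on day 7 (log2 fold change 1.71 ± 0.275, adjusted p = 0.001061), and the pore-forming substrate Gsdmd rose by 0.91 ± 0.148 (adjusted p = 0.001127). Il1b, singled out after its values were seen, went from 0.310 ± 0.161 to 1.43 ± 0.380 FPKM (0.89 ± 0.269, adjusted p = 0.03669).

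Among these effectors the secreted inhibitors changed as well. Il18bp, which captures interleukin-18, rose from 3.91 ± 0.388 to 19.1 ± 0.815 FPKM on day 7 (log2 fold change 2.04 ± 0.363, limma adjusted p = 0.002055). Il1rn, which blocks the interleukin-1 receptor, went from 0.297 ± 0.144 to 3.33 ± 0.708 FPKM (1.73 ± 0.347, adjusted p = 0.004205). On day 14 the Il18bp change was 1.83 ± 0.336 (adjusted p = 0.003611) and that of Il1rn 0.98 ± 0.321 (adjusted p = 0.05689). Sample 2 of that day held Il1rn at 5.44 FPKM against 0.79 to 0.96 FPKM in the other 3, and without it the Il1rn difference was 0.54 (adjusted p = 0.01175) and that of Il18bp 1.36.

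**Figure D3:**
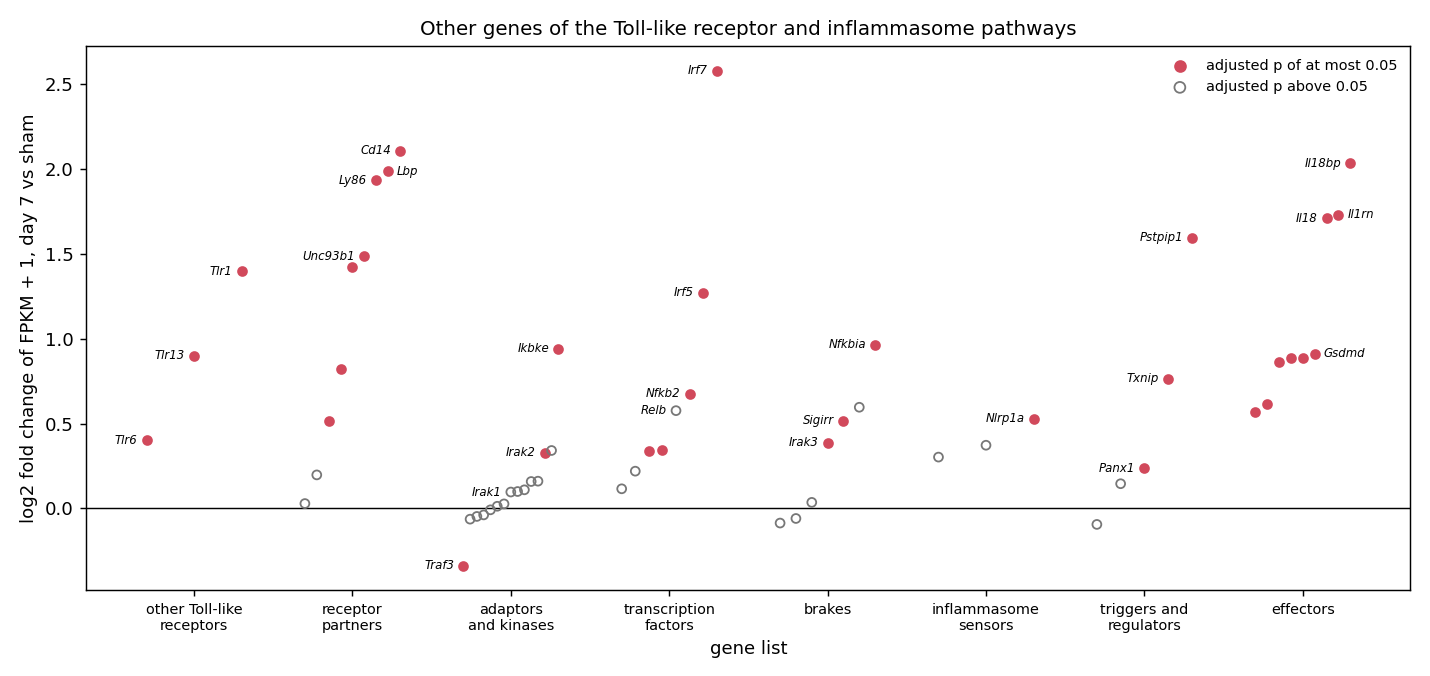
Difference from sham on day 7 in log2(FPKM + 1) (y axis) of the 59 other pathway genes tested, by gene list (x axis). Filled points passed an adjusted p of 0.05 in limma. Names are given for the genes taken by the naming rule, so Ly96 and Il1b are not named. Of the adaptors and kinases, 2 of 15 are filled above 0, and Traf3 is the one filled point below 0.

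Summed markers of several cell types were also higher on day 7, with time courses that differed between the lists. The 15 macrophage markers summed to 39.65 to 68.96 FPKM in the sham samples, 50.97 to 63.01 FPKM on day 1, 419.3 to 555.1 FPKM on day 7 and 208.8 to 767.6 FPKM on day 14, and no marker of this list was at 0 throughout a group. On day 7 all 15 were up-regulated at the looser rule and 11 at the strict cut-offs, and on day 14 13 and 7 were. The 8 T cell markers summed to 5.68 to 8.44 FPKM in sham and 41.59 to 96.69 FPKM on day 7, with 8 of 8 up-regulated at the strict cut-offs. Most of the sham sum was Cd4, at a mean of 5.915 FPKM, while Cd3d and Cd3e had sham means of 0.05 and 0.0525 FPKM. Neutrophil markers went from sums of 0.77 to 1.11 FPKM in sham to 5.13 to 19.98 FPKM on day 7, with Ltf at 0 in every day 7 sample. On day 14 the neutrophil sums were 1.68 to 3.13 FPKM. The 5 fibroblast markers summed to 313.8 to 441 FPKM in sham and 806.4 to 926.3 FPKM on day 7, with 3 of 5 up-regulated at the looser rule and 1 at the strict cut-offs. Their sum was already above every sham sample on day 1, at 475.3 to 603.6 FPKM. On day 14 it overlapped with sham, at 265.8 to 777.6 FPKM. The 5 plasmacytoid dendritic cell markers went from 12.89 to 16.28 FPKM in sham to 25.08 to 29.62 FPKM on day 7, with 2 of 3 tested markers up-regulated at the looser rule. In sham this sum rested mainly on Tcf4 and Il3ra, at means of 6.008 and 7.125 FPKM. Siglech and Spib, at means of 0.0125 and 0.03 FPKM in sham, did not pass the filter. The 6 B cell markers stayed between 0.34 and 0.95 FPKM in all groups, and the sum of 12 sensory neuron markers was 15064 to 15949 FPKM in sham and 12672 to 13388 FPKM on day 7. The part of these cell types in the change of the members was not tested.

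**Figure D4:**
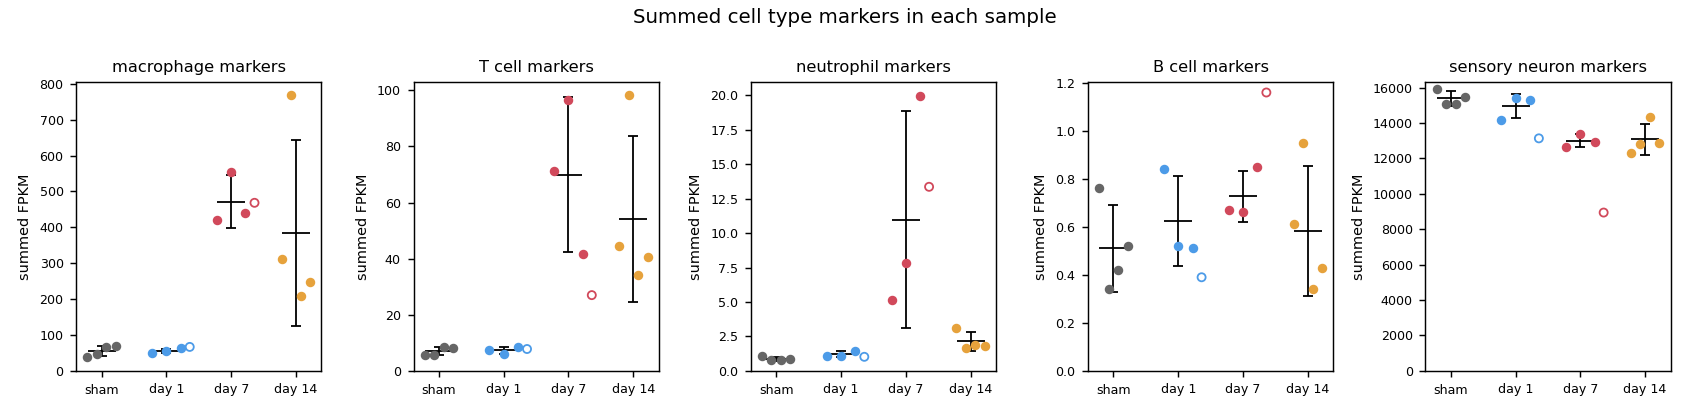
Summed FPKM (y axes, from 0) of the macrophage, T cell, neutrophil, B cell and sensory neuron markers in each sample by group (x axis). Filled points are samples used, open points the 2 left out, and bars the mean and SD of the filled points. The macrophage sum is at most 68.96 FPKM in the sham samples and at least 419.3 FPKM in the filled day 7 samples.

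The members were also placed beside the macrophage markers, which did not all move alike themselves. Those markers had a median ratio to sham of 7.79 on day 7, from 4.22 to 15.5, beside the median of 4.96 for the members. Each member was set against the summed macrophage markers of the same sample, as FPKM per 100 FPKM of that sum. Myd88 went from between 6.18 and 8.75 in sham to between 1.51 and 1.77 on day 7, and Tlr4 from between 1.57 and 2.41 to between 0.380 and 0.498. For 6 members (Tlr2, Tlr3, Tlr4, Myd88, Nlrp3 and Pycard) every day 7 sample was below every sham sample on this measure. The other 4 overlapped with sham. Tlr8 was between 0.303 and 0.412 in sham and between 0.282 and 0.466 on day 7, and Casp1 between 0.885 and 2.60 in sham and between 1.19 and 1.23 on day 7. On day 14 Pycard overlapped with sham too. This measure leans on the complement genes C1qa, C1qb and C1qc, which made up 55.7% of the sum on day 7 and 44.7% in sham. In a sum without these genes, chosen after seeing the data, 5 members were below every sham sample on day 7 (Tlr2, Tlr3, Tlr4, Myd88 and Nlrp3, with Pycard now overlapping) and 3 on day 14 (Tlr4, Myd88 and Nlrp3). The ratios to sham of Tlr2 (4.72) and Pycard (5.74) also lay inside the range of the single markers. The full sum itself rose from at most 68.96 FPKM in sham to at least 419.3 FPKM on day 7. A gene of steady level, or one that rose less than the sum, therefore falls on this measure too. How many of all genes fell below sham in this way was not computed, so these counts do not set the members apart. These are ratios of measured levels in mixed tissue, given as a description with no test.

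**Figure D5:**
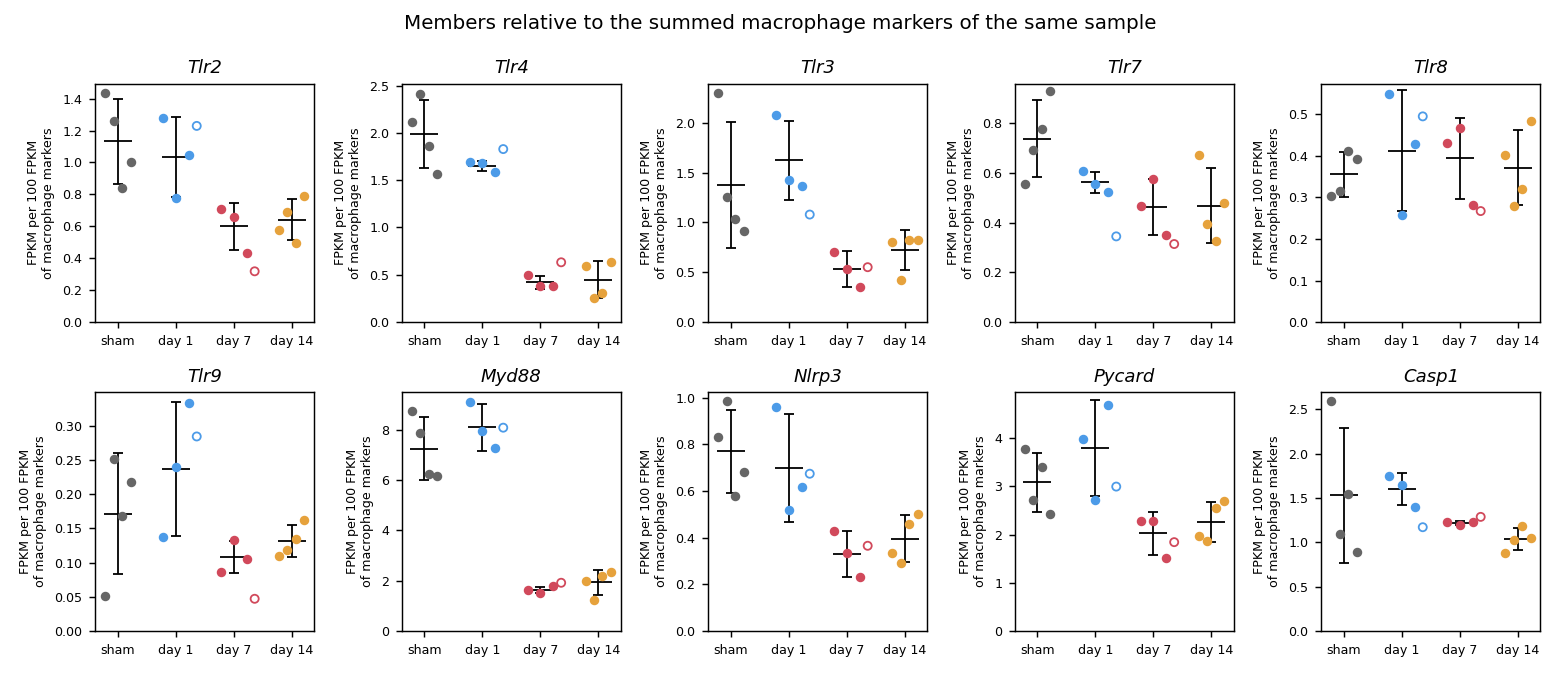
Level of each member per 100 FPKM of summed macrophage markers of the same sample (y axis, from 0) by group (x axis). Filled points are samples used, open points the 2 left out, and bars the mean and SD of the filled points. Myd88 and Tlr4 lie far lower on days 7 and 14 than in sham, and Tlr8 and Casp1 overlap with sham.

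Over the 14 samples, the tested genes most like each member were sought by the root mean square difference of log2(FPKM + 1) after subtraction of the sham mean of each gene. The nearest were Btk for Tlr8 (0.092), Klhl6 for Nlrp3 (0.092), Lrp1 for Tlr4 (0.088), Pml for Myd88 (0.103), Zbp1 for Tlr2 (0.118), Lat2 for Pycard (0.137), Adap2 for Tlr3 (0.139), Igsf6 for Tlr7 (0.14) and Lrrc25 for Casp1 (0.164). Casp1 thus had the least close neighbor of the 9. The measure is not scaled to the size or spread of a gene's change, so this order does not set Casp1 apart.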

How the data were processed

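RNA of 16 DRG samples (4 per group) was sequenced as read pairs. Per the study's methods and the labels, the authors mapped the reads with HISAT and Bowtie2 and estimated levels with RSEM, and they deposited 1 table of FPKM values per sample. The genome build is not given in the sources used here. RSEM estimates need not be whole reads, and FPKM do not hold the number of fragments behind a value, so the depth is unknown and no counting interval is given. FPKM summed to 436572 to 473959 per sample.

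A pseudocount of 1 was added. Genes that reached 1 FPKM in 3 or more of 14 samples (14023 of 21021) were kept, and their log2(FPKM + 1) was fitted with limma 3.58.1 in R 4.3.3, with 4 groups and an intensity trend. This scale understates changes of low genes. P-values were adjusted by Benjamini-Hochberg over all genes tested. They measure the spread between samples, each of which pooled ganglia of 1 animal. The 3 TCI groups share the same 4 sham samples. Tlr9, below the filter, had a two-sided exact permutation test. The code was tested on simulated data.

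The members and gene lists were chosen with earlier results of these data known. Named were all members, up to 4 called genes of each pathway list by the size of the day 7 change, otherwise the 2 of highest level. Values of Ly96, Il1b, Aim2, Nlrc4 and Nlrp6 were given outside this rule. Promoters came from RefSeq (GRCr8), where all 10 members matched. Alternatives changed the samples, scaling, filter, pseudocount, cut-offs and replicate number. Correlations of deviations between samples sharing a replicate number ran from -0.095 to 0.269 over 18 pairs, with a median of 0.003. Those between samples of other numbers ran from -0.326 to 0.41 over 55 pairs, with a median of -0.005, so the numbers were not taken to pair samples.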

Additional observations from a re-analysis of the deposited data

Results flagged for a closer look

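Within groups of 4 samples, left-out samples included, a single sample stood apart from the other 3 in 17 of 144 groups examined over the members and named pathway genes, where chance gives about 1 in 20. Sample 2 of day 14 was the high one in 8 of them: Pycard at 14.27 FPKM, Casp1 at 7.90 FPKM, Tlr1 at 4.17 FPKM, Ly86 at 17.96 FPKM, Irf7 at 137.08 FPKM, Irf5 at 9.85 FPKM, Il18bp at 45.99 FPKM and Il1rn at 5.44 FPKM. For Casp1 the other 3 samples of that day lay between 2.47 and 2.75 FPKM, and for Pycard between 5.31 and 6.64 FPKM. That sample also had the highest macrophage marker sum, 767.6 FPKM, and the part of this in the levels was not tested.

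Sample 3 of day 7, which was left out of the main comparisons, stood apart in 4 groups, with Irak1 at 29.81 FPKM, Irf7 at 78.25 FPKM, Txnip at 185.55 FPKM and Il18bp at 34.49 FPKM. Other single samples were Nlrp3 at 1.02 FPKM in sample 4 of day 7 (the others were at 1.71 to 1.85 FPKM), Casp1 at 0.78 FPKM in left-out sample 2 of day 1, Tlr1 at 0.12 FPKM in sample 4 of day 1, Traf3 at 12.48 FPKM in sham sample 3 and Irak3 at 2.73 FPKM in sham sample 1. Lbp differed between the late days, with a log2 difference of -1.61 from day 7 to day 14 (limma adjusted p = 0.003865).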

How the results depend on the processing

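Over 9 members and 5 comparisons, single-member changes kept their direction and side of the threshold in 940 of the recomputed values, became stronger in 55, weaker in 31 and changed sign in 13. The Tlr9 difference was 0.359 to 0.536 on day 7 and 0.285 to 0.478 on day 14 with 1 sample left out, with an exact permutation p of 0.0667 to 0.1 on day 7, the smallest those sample numbers allow, and 0.0286 to 0.0571 on day 14, where 0.0571 is above the smallest possible. Strict counts on day 7 against sham (3 members, 4 pathway genes) became 0 and 2 with no filter on level, 1 and 2 when a mean of 5 FPKM was required, 8 and 34 at an adjusted p of at most 0.05, 6 and 12 when the fold limit was kept with it, and 0 and 2 with a replicate block. Pathway genes were 10 with only the 2 groups compared and 7 with a pseudocount of 0.1. Leaving out 1 sample gave 0 to 5 members and 1 to 11 pathway genes. On day 14 against sham (0 and 0), all 16 samples gave 1 and 1, a pseudocount of 0.1 gave 2 and 1, the 2 looser rules 8 and 25, then 3 and 9, and leaving out 1 sample 0 to 2 and 0 to 4. From day 7 to 14, both looser rules gave 1 pathway gene, Lbp. From day 1 to 7 (0 and 2), members were 3 with all 16 samples, 1 with only the 2 groups, 1 with a pseudocount of 0.1, 9 and 5 at the looser rules and 0 to 4 with 1 sample left out. Pathway genes there were 4, 6 and 4, then 21 and 10, 1 with no filter, 0 when a mean of 5 FPKM was required, 1 with a replicate block and 1 to 11 with 1 sample left out. Counts of members at an adjusted p of at most 0.05, an alternative chosen after seeing the data, were 2 in each comparison when a mean of 5 FPKM was required, 5 on day 14 with only the 2 groups, and 5 to 9 there with 1 sample left out. The replicate block left these at 8 on day 7, 8 on day 14 and 7 from day 1 to 7. Small uncalled log2 differences changed sign: on day 1, Tlr2 to 0.026 (all 16 samples), 0.128 (replicate block) and between -0.065 and 0.047 with 1 sample left out, Tlr7 to 0.006 and Nlrp3 to 0.057 (replicate block), Nlrp3 between -0.081 and 0.028 and Tlr8 between 0 and 0.087 with 1 sample left out, and Tlr3 from day 7 to 14 to 0.039 (quantile normalization), 0.012 (replicate block) and between -0.252 and 0.07 with 1 sample left out. The cause was not tested, beyond fewer genes or samples entering some fits. FPKM near 0 limit what can be said of Tlr8 and Tlr9.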
